A study of Mus musculus with 10 samples.

Results

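Pluripotency of mouse ESCs rests on a small network of transcription factors that activate one another's genes and keep the cells self-renewing. The 9 network genes examined here were Pou5f1 (Oct4), Nanog, Klf2, Klf4, Klf5, Esrrb, Zfp42 (Rex1), Prdm14 and Tcl1, and they were chosen by name from 22380 protein-coding genes. PRC2, of which Suz12 is a core subunit, places H3K27me3 on repressed developmental genes in ESCs, and Pcl3 is an accessory subunit of PRC2. For each gene, its mm9 position in GENCODE vM1 was widened by 5 kb on each side, and the deposited ChIP-seq sites that shared at least 1 base with this window were collected.

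Suz12-TAP and H3K27me3 were profiled in Suz12Suz12TAP/+ ESCs, established from the gene trap line XG122 from BayGenomics. In these cells 1 endogenous Suz12 allele carries the TAP tag. Anti-FlagM2 served for both tagged proteins. These cells expressed either scramble shRNA or Pcl3 shRNA, and each ChIP and each input DNA was 1 library. The input of the knockdown cells is labelled Pcl3 shRNA 6, whereas the labels of their ChIP libraries give no shRNA number, so whether these used the same shRNA is not known. Pcl3-TAP was profiled in E14 ESCs that expressed Pcl3 shRNA 6 or Pcl3 shRNA 7 together with a tagged Pcl3 that the shRNAs do not recognize, with 1 ChIP and 1 input library for each. The 10 libraries gave 4 lists of sites: 8876 Suz12 sites in scramble cells, 5722 Suz12-depleted sites on Pcl3 knockdown, 5242 Pcl3 sites and 678 H3K27me3-depleted sites on Pcl3 knockdown. Each site has a single p-value from the Skellam distribution, and the strength of a site is given below as −log10 of that p-value. The lists hold no read counts, so the depth behind each site was not used here, and with 1 library per condition no difference below has a replicate check or a test. The lists do not measure RNA, so the expression of these genes, and the pluripotent state of the cells, could not be checked from them.

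Suz12 was found at 3 of the 9 genes, Klf4, Esrrb and Prdm14, and the strongest site at each of them was in the Suz12-depleted list. A Suz12 site lay in the window of 28.8% of all protein-coding genes and a Suz12-depleted site in that of 20.6%, so the members' 3 of 9 for each list is near the background. Among genes whose window length fell in the range of the members', these shares were 29.9% and 20.9%, and among all annotated genes 20.9% and 15%. Pcl3 was found at 1 of the 9 genes, Esrrb (background 14.7%), and decreased H3K27me3 at 1, Prdm14 (background 3.13%). The corresponding shares were 14.4% and 3.19% among genes in that range of window length, and 10.9% and 2.28% among all annotated genes. The range held 17219 of the 22380 genes, and Esrrb alone set its upper end (170512 bp), so lengths were not matched. Of the protein-coding genes with a Suz12 site, 71.7% also had a Suz12-depleted site, 47.7% a Pcl3 site and 10.5% an H3K27me3-depleted site, against 3, 1 and 1 of the 3 members. Pou5f1, Nanog, Klf2, Klf5, Zfp42 and Tcl1 had no site of any list, as had 70.1% of protein-coding genes.

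The 3 bound genes had 3 different combinations. Klf4 had Suz12 and Suz12 depletion alone, a combination found at 1600 protein-coding genes (7.15%). Esrrb had Suz12, Suz12 depletion and Pcl3 without an H3K27me3-depleted site, as had 2370 genes (10.6%). Prdm14 had Suz12, Suz12 depletion and an H3K27me3-depleted site without Pcl3, the least common of these combinations, shared by 150 genes (0.67%). The study reported a widespread decrease of H3K27me3 on Pcl3 knockdown, less marked by ChIP-seq than by biochemical measurement. Absence from the H3K27me3-depleted list therefore does not show that Klf4 or Esrrb kept the mark.

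Suz12 sites usually lie on CpG-rich sequence, so the DNA under the 3 strong sites is shown beside that upstream of 2 unbound members. The first 3 sequences are the 300 bp of each Suz12 site with the most CpG and no annotated UTR base, and the last 2 are the 300 bp before the annotated start of Klf2, a CpG-rich promoter without Suz12, and of Nanog, a CpG-poor one. All are from mm9, on the strand of the gene and 5′ to 3′, with each CpG in capitals.
Klf4: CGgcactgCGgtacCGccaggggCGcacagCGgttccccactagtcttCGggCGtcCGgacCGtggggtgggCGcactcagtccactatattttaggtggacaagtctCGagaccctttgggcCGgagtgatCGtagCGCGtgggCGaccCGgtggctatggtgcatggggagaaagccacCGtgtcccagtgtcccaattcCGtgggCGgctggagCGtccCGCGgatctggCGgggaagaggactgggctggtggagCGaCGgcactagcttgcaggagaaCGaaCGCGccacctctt
Prdm14: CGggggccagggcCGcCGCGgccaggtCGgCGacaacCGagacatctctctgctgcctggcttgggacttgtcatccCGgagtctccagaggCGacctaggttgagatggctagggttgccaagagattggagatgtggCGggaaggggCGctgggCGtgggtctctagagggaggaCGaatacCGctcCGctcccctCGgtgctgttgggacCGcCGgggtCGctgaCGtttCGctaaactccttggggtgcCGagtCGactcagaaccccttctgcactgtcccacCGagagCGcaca
Esrrb: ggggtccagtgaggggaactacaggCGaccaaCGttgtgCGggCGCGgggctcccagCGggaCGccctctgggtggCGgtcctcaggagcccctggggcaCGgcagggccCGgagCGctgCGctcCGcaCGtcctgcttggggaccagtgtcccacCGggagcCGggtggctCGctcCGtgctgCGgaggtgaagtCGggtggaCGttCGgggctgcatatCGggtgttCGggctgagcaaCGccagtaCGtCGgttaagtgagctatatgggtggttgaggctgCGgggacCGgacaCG
Klf2: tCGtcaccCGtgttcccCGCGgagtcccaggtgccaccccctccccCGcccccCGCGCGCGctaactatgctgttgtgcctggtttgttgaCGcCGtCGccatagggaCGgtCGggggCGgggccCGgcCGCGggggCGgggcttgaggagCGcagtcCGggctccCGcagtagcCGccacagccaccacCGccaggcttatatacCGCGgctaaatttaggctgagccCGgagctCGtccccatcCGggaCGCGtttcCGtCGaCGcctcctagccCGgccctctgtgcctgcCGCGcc
Nanog: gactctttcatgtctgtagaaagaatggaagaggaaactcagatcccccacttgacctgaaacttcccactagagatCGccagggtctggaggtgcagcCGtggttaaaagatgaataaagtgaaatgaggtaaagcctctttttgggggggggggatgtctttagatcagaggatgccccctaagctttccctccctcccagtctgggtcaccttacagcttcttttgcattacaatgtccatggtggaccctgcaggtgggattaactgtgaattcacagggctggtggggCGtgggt
The Klf4 sequence is chr4:55544029-55544328 (minus strand), 1019 to 1318 bp after the gene start, with 29 CpG. The Prdm14 sequence is chr1:13116451-13116750 (minus strand), 494 to 793 bp after the start, with 25 CpG. The Esrrb sequence is chr12:87763348-87763647 (plus strand), 61281 to 61580 bp after the annotated gene start, with 30 CpG. The Klf2 sequence, chr8:74842632-74842931 (plus strand), holds 37 CpG. It lies upstream of the gene and the 3 bound sequences lie inside theirs, so these counts do not rank the genes, and in the 1000 bp around the start Klf4 was denser than Klf2 (11.6 against 7.5 CpG per 100 bp). The Nanog sequence, chr6:122657207-122657506 (plus strand), holds 3.

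**Figure D1:**
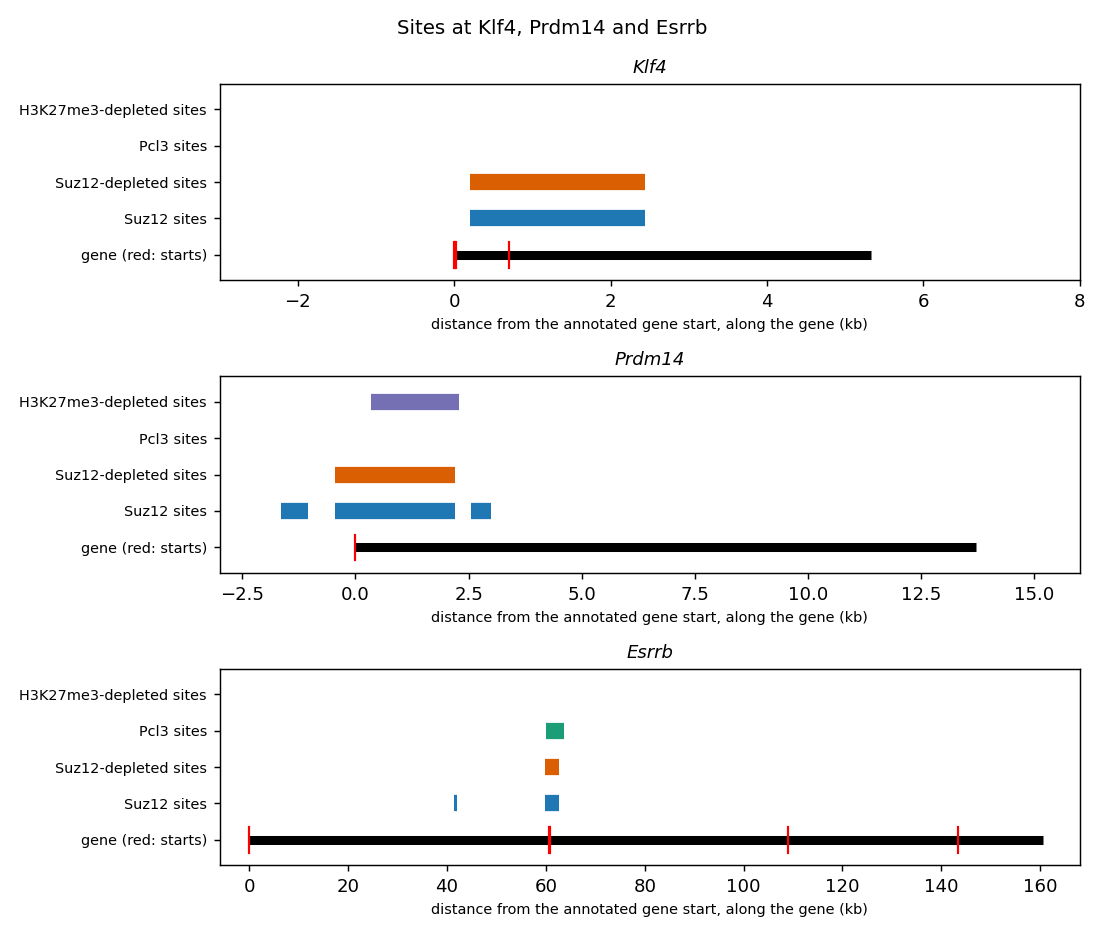
Sites of the 4 lists along Klf4, Prdm14 and Esrrb, with distance from the annotated gene start in kb on the horizontal axis, the gene body as a black bar and annotated transcript starts in red. At Klf4 and Prdm14 the Suz12-depleted site lies within 3 kb of the gene start, whereas at Esrrb it lies 59884 bp to 62583 bp into the gene, over a second group of transcript starts.

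Pou5f1 and Nanog encode homeodomain transcription factors at the core of the network. Pou5f1 (ENSMUSG00000024406.9) lies on chromosome 17 from 35642982 to 35647721, plus strand. No site of any list lay within 5 kb of it, nor in the part of Tcf19, the only other gene in its window, that the window covers. The nearest Suz12 site was 34.7 kb upstream, from 35606501 to 35608250, beside the start of the MHC class I gene H2-Q10, with a strength of 61.1 and a place in the depleted list. The nearest Pcl3 site, 35.3 kb away, lay at the same H2-Q10 start. Of the members without a site, Pou5f1 was the closest to Suz12, and its neighbourhood was the most gene-dense, with 117 other protein-coding starts within 1 Mb.

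Nanog (ENSMUSG00000012396.5) lies on chromosome 6 from 122657507 to 122664651, plus strand. Its nearest Suz12 site was 86.8 kb downstream at the start of Slc2a3, a glucose transporter gene. That site was weak, with a strength of 13.7, and was not in the depleted list. The nearest Suz12-depleted and Pcl3 sites, both 105 kb away, lay together at the start of Foxj2. All 4 annotated Nanog transcripts begin within a short interval, and none of these starts was closer than 93840 bp to a Suz12 site.

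Klf2, Klf4 and Klf5 are Krüppel-like zinc finger factors with overlapping functions in ESC self-renewal, and among them Klf4 alone had a Suz12 site. Klf4 (ENSMUSG00000003032.7) lies on chromosome 4 from 55540013 to 55545347, minus strand. Its Suz12 site ran from 55542901 to 55545150, 2250 bp wide, and began 197 bp inside the gene. It covered 1081 bp of coding exon, 427 bp of other exon sequence and 742 bp of intron, and it contained the start of 1 of the 4 annotated transcripts. The deposited p-value of 2.16e-85 (strength 84.7) placed it above 77.5% of all Suz12 sites. The site was in the depleted list.

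The nearest Pcl3 site to Klf4 was 118 kb upstream of the gene, with Klf4 as its nearest protein-coding start, and the nearest H3K27me3-depleted site was 2251 kb away. Sites of this strength without Pcl3 nearby were a minority. In the eighth of 10 strength classes of Suz12 sites, to which the Klf4 site belongs (strength 59.1 to 95.7), 75.9% shared at least 1 base with a Pcl3 site and 14.3% lay more than 100 kb from any. Depletion was nearly general in this class, at 99.7% of its sites, against 64.5% of all Suz12 sites. Over the whole lists, 44.3% of Suz12 sites shared bases with a Pcl3 site and 76.9% of Pcl3 sites with a Suz12 site. Klf4 lies in a gene-poor region, with 2 other protein-coding starts within 1 Mb.

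Klf2 (ENSMUSG00000055148.7) lies on chromosome 8 from 74842932 to 74845555, plus strand, and Klf5 (ENSMUSG00000005148.7) on chromosome 14 from 99697910 to 99712624, plus strand. The nearest Suz12 site to Klf2 was 183 kb upstream at the start of Tpm4, a tropomyosin gene, with a strength of 19.0. The nearest to Klf5 was 1128 kb upstream at Dach1, a developmental transcriptional regulator, with a strength of 203.1. Both of these sites were in the depleted list. The distance of Klf5 exceeded that of 95.3% of protein-coding genes, and Klf2 exceeded 73.4%. Klf2, Klf4 and Klf5 thus spanned the range from a strong site inside the gene to none within 1 Mb.

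Of the 17 Klf genes, 6 had a Suz12 site (35.3%), 4 a Suz12-depleted site, 3 a Pcl3 site and 0 an H3K27me3-depleted site. The shares over all protein-coding genes were 28.8%, 20.6%, 14.7% and 3.13%. The strongest Suz12 site of the family was at Klf14, with a strength of 241.8 and a Pcl3 site of strength 110.4, both at its start. Klf4 came next, and Klf15 had a Suz12 site of 46.0 with a Pcl3 site of 25.8 at its start. The sites at Klf10 (7.4) and Klf11 (9.7) exceeded 3.06% and 15.6% of Suz12 sites and were not depleted. The strongest of the 2 sites in the Klf1 window (10.0) lay nearest to the start of Dnase2a. Klf7 had a Pcl3 site of strength 8.0 and no Suz12 site.

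Esrrb, an orphan nuclear receptor that acts with Nanog and Oct4 in naive ESCs, had the strongest Suz12 site of the 9 genes. The gene (ENSMUSG00000021255.10) lies on chromosome 12 from 87702067 to 87862578, plus strand, and is by far the longest member, at 160512 bp. The site ran from 87761951 to 87764650, 2700 bp wide, with a p-value of 6.61e-229 (strength 228.2), above 92.5% of Suz12 sites. It was in the depleted list. A Pcl3 site from 87762151 to 87765800 (p-value 7.90e-264, strength 263.1) shared 2500 bp with it, or 92.6% of the Suz12 site and 68.5% of the Pcl3 site. This Pcl3 site was stronger than 95.4% of the Pcl3 list.

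The position of this site depends on the transcript considered. It lay 59884 bp to 62583 bp from the annotated gene start, and mostly over intron (2375 bp), with 50 bp of coding exon and 275 bp of other exon sequence. However, 4 of the 7 annotated Esrrb transcripts start inside it, 3 at 87762594 and 1 at 87762833. The annotated gene start, at 87702067, where 1 transcript begins, was 41384 bp from the nearest Suz12 site. A second Suz12 site in the first part of the gene, from 87743451 to 87744150, lay in an intron, was weak (p-value 1.62e-12, strength 11.8), and was neither in the depleted list nor within 18 kb of Pcl3. The nearest H3K27me3-depleted site was 778 kb beyond the gene. When only the 5 kb on each side of the annotated gene start were considered, Esrrb had no site of any list.

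Prdm14, a PR domain protein that restrains Fgf signalling and DNA methylation in ESCs and is needed for germ cells, was the only member with an H3K27me3-depleted site. The gene (ENSMUSG00000042414.7) lies on chromosome 1 from 13103538 to 13117244, minus strand, with 1 annotated transcript. Its main Suz12 site ran from 13115051 to 13117700, from 456 bp before the start to 2193 bp after it, over 670 bp of coding exon, 75 bp of other exon sequence and 1449 bp of intron. The p-value of 2.60e-114 (strength 113.6) placed it above 83% of Suz12 sites, and the site was in the depleted list. The H3K27me3-depleted site ran from 13114951 to 13116900, inside the gene, with a p-value of 1.18e-13 (strength 12.9) for the decrease, stronger than 88.2% of that list. The Suz12 and H3K27me3 sites shared 1850 bp, or 94.9% of the H3K27me3 site, and their centers were 450 bp apart.

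A pair of further Suz12 sites flanked the main one at Prdm14. The site from 13114251 to 13114700 had a strength of 7.3 and the site from 13118301 to 13118900, upstream of the gene, one of 8.7. Neither was in the depleted list, and in the 2 weakest strength classes, to which they belong, 2.48% and 10.1% of sites were. At Prdm14 and at Esrrb alike, the strong site was in the depleted list and the weak ones were not. Over all 8876 Suz12 sites, the share in the depleted list rose with strength up to 100% in the strongest class, so this split is that of the whole list.

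**Figure D2:**
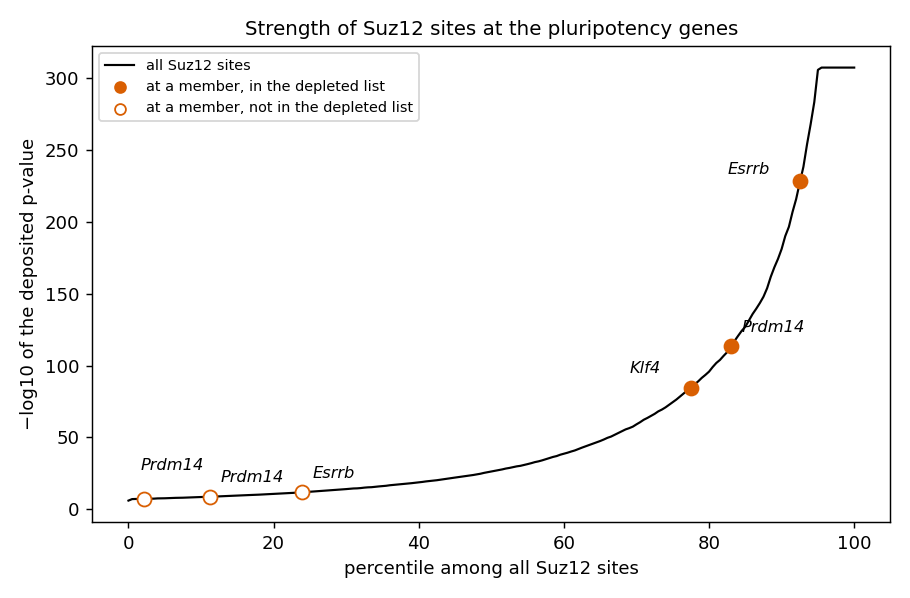
Strength of the 6 Suz12 sites at Klf4, Esrrb and Prdm14 (vertical axis, −log10 of the deposited p-value) against their percentile among all 8876 Suz12 sites (horizontal axis), with the curve of all sites. The 3 sites in the depleted list (filled) have strengths of 84.7, 113.6 and 228.2, and the 3 others (open) are between 7.3 and 11.8.

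No Pcl3 site lay near Prdm14, the nearest being 121 kb beyond the gene at the start of Slco5a1. Among Suz12 sites as strong as that of Prdm14 this was rare. In its strength class (95.7 to 181), 94.8% of sites shared bases with a Pcl3 site and 27 of 887 (3.04%) lay over 100 kb from one. Of the 1507 Suz12 sites at least as strong as the one at Prdm14, 14 lay over 100 kb from Pcl3 (0.929%), and for Klf4 the count was 59 of 1999 (2.95%). Counted by genes, 38 of the 1419 with so strong a site as Prdm14 had no Pcl3 site in their window (2.68%). Decreased H3K27me3 was present at 8.57% of the 1750 genes (7.82%) that had Suz12 depletion and no Pcl3 site in the window, and at 14.1% of all 4620 genes with Suz12 depletion, 62.1% of which had a Pcl3 site. The Pcl3 list came from other cells than the Suz12 and H3K27me3 lists, namely Pcl3 knockdown ESCs with tagged Pcl3. The study put Pcl3 expression in such cells below the endogenous level. Differences of cells, of Pcl3 level and of depth between the lists cannot be told apart from differences of binding. The study also reported less Suz12 mRNA and protein on Pcl3 knockdown, and the bearing of this on these sites was not tested.

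Zfp42, a zinc finger factor used as a marker of naive ESCs, and Tcl1, a coactivator of Akt, had no site. Zfp42 (ENSMUSG00000051176.5) lies on chromosome 8 from 44380422 to 44392363, minus strand. It was the member farthest from Suz12, 1628 kb from a site upstream of it whose nearest protein-coding start is that of Fat1, farther than 97.7% of protein-coding genes. Its nearest Pcl3 site was 2431 kb away, and no site of any list lay within 1 Mb. Klf5 was the other member without any site within 1 Mb. Tcl1 (ENSMUSG00000041359.7) lies on chromosome 12 from 106454967 to 106460947, minus strand, 113 kb from a Suz12 site of strength 55.8 that was in the depleted list and had a Pcl3 site of strength 10.5 within it. No protein-coding start was closer to that site than Tcl1 itself.

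**Figure D3:**
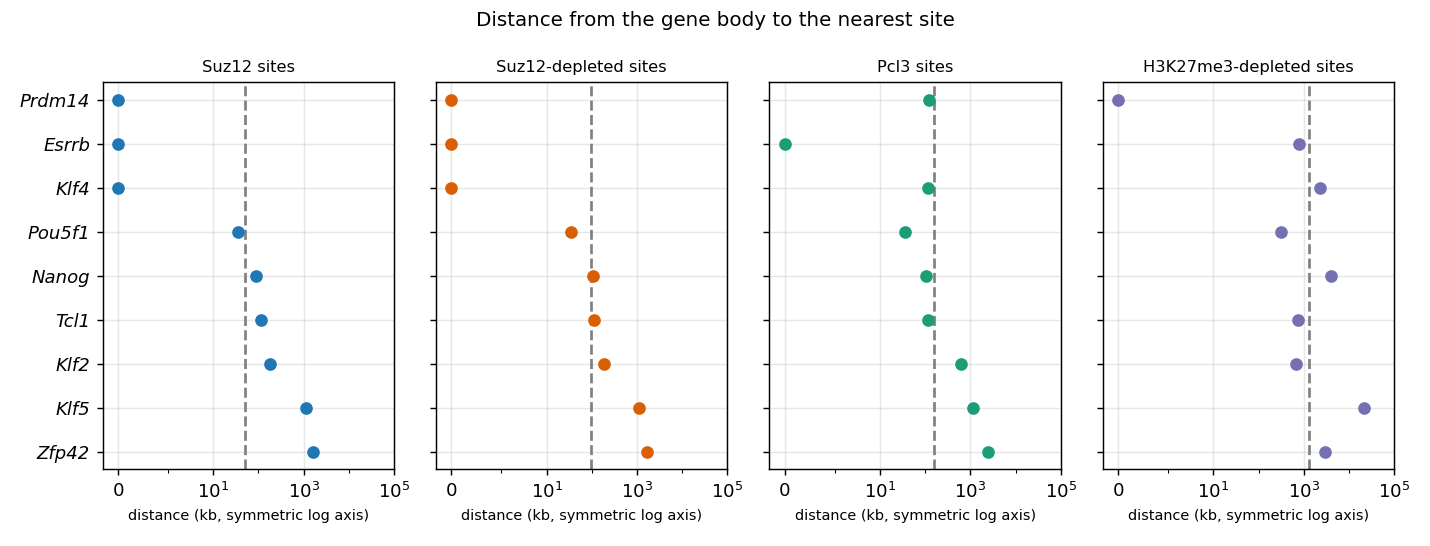
Distance in kb from each gene body to the nearest site of each list (symmetric log axis, 0 where a site lies in the gene body), with the median over protein-coding genes as a dashed line. Klf4, Esrrb and Prdm14 are at 0 for Suz12, and the other 6 genes range from 34.7 kb for Pou5f1 to 1628 kb for Zfp42.

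Over the 9 genes, the median distance from the gene body to Suz12 was 86.8 kb, against 49.7 kb over protein-coding genes, with 5 of the 9 farther than that median. For Suz12-depleted sites it was 105 kb against 95.5 kb. The order was the opposite for Pcl3 (118 kb against 155 kb) and for H3K27me3-depleted sites (778 kb against 1303 kb). The direction of the difference from protein-coding genes was thus not the same for all 4 lists. The distances of single members ranged from 0 to over 1 Mb.

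CpG density, which the choice of members did not use, was counted in the 1000 bp around each annotated start. It was 11.6 CpG per 100 bp at Klf4, 10.2 at Klf5 and 7.5 at Klf2, and between 1.7 (Nanog) and 3.4 (Prdm14) at the other 6. The median over protein-coding starts was 4.0, and it was 6.6 at the 4986 starts within 1 kb of a Suz12 site and 2.5 at the others. Klf5 and Klf2, denser than 93.4% and 79.1% of all starts, had no Suz12, whereas Prdm14, at 45.5%, had a strong site. Of all starts with at least 5 CpG per 100 bp, 37.7% lay within 1 kb of a Suz12 site, against 10.7% of the others. At Esrrb the density was 2.3 at the annotated gene start, without Suz12, and 5.5 at the start shared by 3 transcripts inside the Suz12 site.

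Within the Suz12 sites themselves, the density was 6.53 CpG per 100 bp at Klf4, 5.19 at the strong Esrrb site and 4.34 at the main Prdm14 site, around the median of 5.41 over all Suz12 sites. The letters GCGCGC, which read the same on both strands, were searched in the 1000 bp around the center of each site. This central window held 1 match at Klf4 and 0 at the strong Esrrb site and the main Prdm14 site. Over the whole sites, the count was 1 at Klf4, 2 at the strong Esrrb site and 0 at the main Prdm14 site. Over all Suz12 sites, 49.5% of these windows held them, with 56.0% for sites that shared bases with Pcl3, 55.8% for all depleted sites and 57.2% for depleted sites over 100 kb from Pcl3, the class of the Klf4 and main Prdm14 sites. In the 1000 bp around annotated starts, the count was 5 at Klf4, 2 at Klf2, 1 each at Klf5 and Esrrb, and 0 at the other 5 members, and 31.5% of protein-coding starts held at least 1 match.

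**Figure D4:**
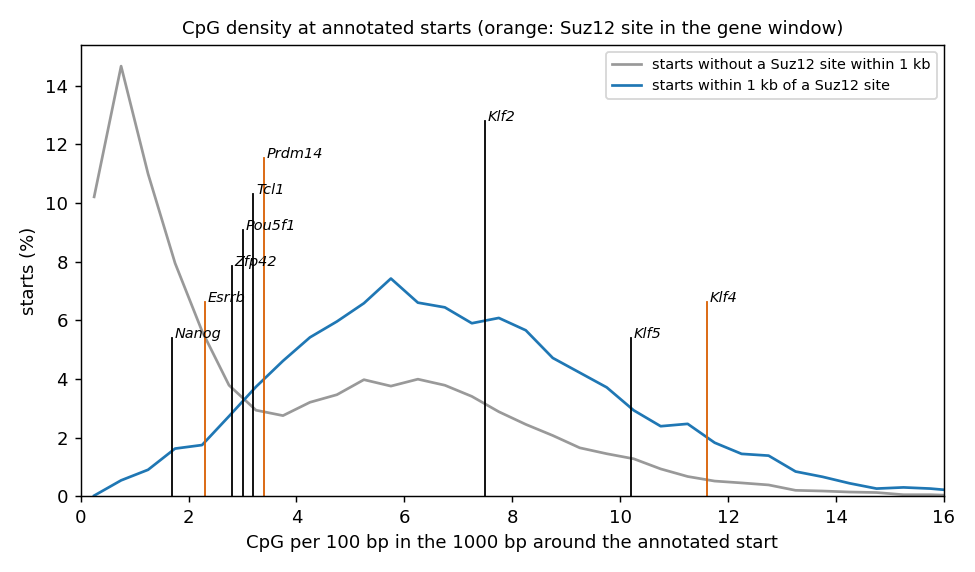
CpG per 100 bp in the 1000 bp around annotated starts (horizontal axis), as the percent of starts in bins of 0.5 for those within 1 kb of a Suz12 site (blue) and the others (grey). Vertical lines mark the 9 genes, in orange where the gene body plus 5 kb on each side holds a Suz12 site. For Esrrb, at 2.3, the Suz12 sites lie inside the gene and not at the start plotted here. Klf2 at 7.5 and Klf5 at 10.2 lie in the CpG-rich range without a Suz12 site.

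Of 30 other genes of the pluripotency network, 8 had a Suz12 site (26.7%), 4 a Suz12-depleted site (13.3%), 7 a Pcl3 site (23.3%) and 1 an H3K27me3-depleted site (3.33%). Over all protein-coding genes these shares were 28.8%, 20.6%, 14.7% and 3.13%. Tbx3, a T-box factor, had 5 Suz12 sites, the strongest with a p-value written as 0, with 4 of them depleted, 4 Pcl3 sites and 2 H3K27me3-depleted sites. Gbx2, a homeobox gene, had 4 Suz12 sites, the strongest again with a p-value of 0 and nearest to the start of D130058E05Rik, and Foxd3, a forkhead factor, had 5, the strongest with a strength of 201.8. Sall1 had Suz12 (59.7) and Pcl3 (34.9) just upstream of its start and no depletion, although 99.7% of the sites in its strength class, the same as that of Klf4, were depleted. Nr5a2, a nuclear receptor like Esrrb, had 3 Suz12 sites, the strongest (70.5) lying 11379 bp after its start, 1 of them depleted, and no Pcl3 site within 582 kb. Single Suz12 sites that were not depleted lay at the starts of Fgf4 (28.2), Utf1 (8.3) and Nr0b1 (8.1).

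Sox2, the partner of Oct4, had a weak Pcl3 site (7.9) 4.73 kb upstream of the gene, and its nearest Suz12 site was 7.03 kb from the gene. Rif1 (13.3) and Trim28 (7.4) also had a Pcl3 site without Suz12 in the window. The other 19 genes of the list, among them Sall4, Dppa2, Dppa3, Dppa4, Dppa5a, Lin28a, Stat3 and Tet1, had no site of any list. Of the 39 network genes in all, 11 had a Suz12 site, a share near the 28.8% of all protein-coding genes.

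Regulators of the primed state and of early lineages, many of them known targets of PRC2 in ESCs, were listed for comparison. The list was chosen with earlier results of these data known, so its counts are a reference and not an independent result. Of 19 such genes, all had at least 1 site in each of the Suz12, Suz12-depleted and Pcl3 lists, and 6 (31.6%) had an H3K27me3-depleted site. Over all protein-coding genes the shares were 28.8%, 20.6%, 14.7% and 3.13%. The strongest Suz12 p-value was written as 0 at 12 of the 19, among them Otx2, Pou3f1, T, Eomes and Gsc. Of 75 ribosomal protein genes, which every cell transcribes, 9 had a Suz12 site in the window (12%), 4 a Suz12-depleted site, 2 a Pcl3 site and 3 an H3K27me3-depleted site. Without the 5 kb flanks, the ribosomal count for Suz12 was 1 and that of the 9 network genes 3. With 5 kb around annotated starts only, these counts were 4 and 2. The share over all genes was not computed for these settings. Gene length differs as well, and the strong Esrrb site lies 59884 bp inside its gene, where flanks have no effect.

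**Figure D5:**
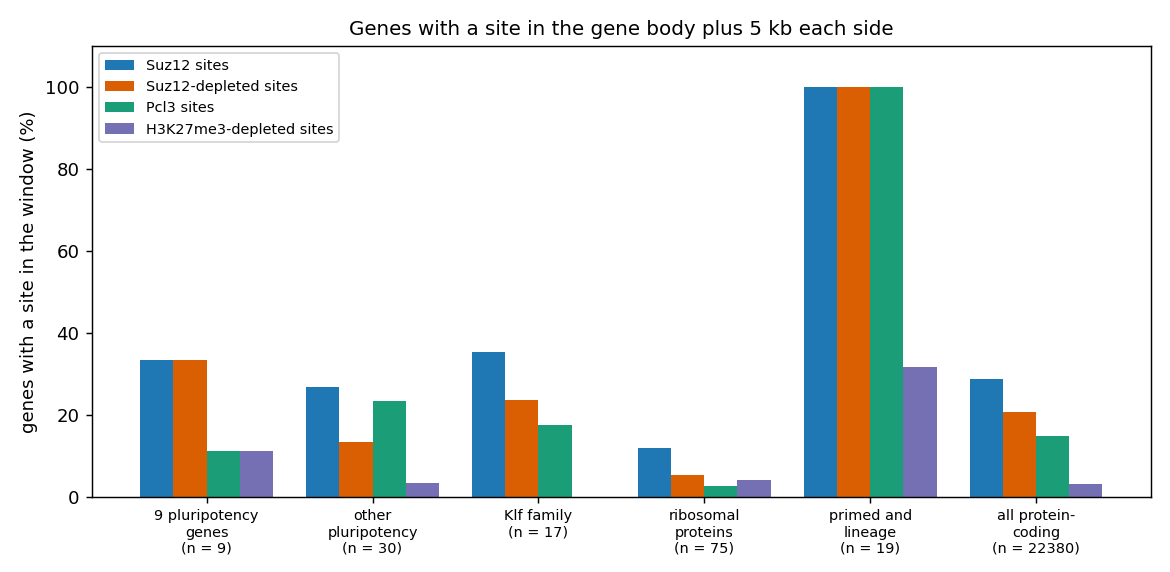
Percent of genes with a site of each list in the gene body plus 5 kb on each side, for the 9 pluripotency genes, 30 other network genes, 17 Klf genes (3 of them among the 9), 75 ribosomal protein genes, 19 primed and lineage genes and all 22380 protein-coding genes. The 9 genes stand at 33.3% for Suz12, close to the 28.8% of all genes, and the primed and lineage genes at 100%. The gene lists were chosen with earlier results of these data known.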

How the data were processed

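ChIP-seq site lists of mouse ESCs were analysed. Per the study's methods, single reads of 30 nucleotides were mapped by the authors (bowtie, mm9, unique hits only). Each pair of libraries was then brought to the same background level, windows of 400 bp with a Skellam p-value under 1e-07 were called, and neighbouring windows were merged. The deposited p-values of the 4 lists were the only measured values. P-values written as 0 were set to the largest −log10 value of their list. All 5722 Suz12-depleted sites repeat the position and p-value of a binding site, so the size of a loss is not known. Whether the 2 Pcl3-TAP libraries were pooled is not given in the sources used here. A p-value grows stronger with depth and width as well as with occupancy, and unique alignment leaves out repeats.

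Genes and transcripts were those of GENCODE vM1 and sequences those of mm9. Distances run to the nearest site edge and coordinates are 1-based. The members, the gene lists and the rule for named genes (all members, each bound gene of the network and Klf lists, 5 of the primed and lineage genes, which tied, the gene nearest each member's site and any gene overlapping a member's window) were chosen with earlier results of these data known. Of the listed genes, Sox1 was not matched in the annotation and was left out. No test was run. Functions were checked on simulated intervals, with 0 of 3600 overlap calls and 0 of 1200 distances wrong. Alternatives are in the closing section. Python 3.11.15, numpy 2.4.6 and pandas 2.3.3 were used.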

Additional observations from a re-analysis of the deposited data

How the results depend on the processing

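Of 44 recomputed counts of the 9 genes, 42 stayed within 1.5 times the value reported, over flanks from none to 50 kb, other overlap rules and stricter p-values. The Pcl3 count became 2 with flanks of 50 kb, which reach the H2-Q10 site beside Pou5f1, and 0 with 5 kb around annotated starts only, which leaves out the internal Esrrb site. The distance medians, CpG medians and background shares stayed within 1.5 times. No paired analysis was possible because no result comes from a test and each list stands for a whole comparison. Leaving out a Pcl3-TAP library was not possible with 1 list for both.

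Counts of the other lists moved more. The other network genes gave 13 (Suz12), 9 (Suz12-depleted) and 3 (H3K27me3-depleted) with flanks of 20 kb, and 14, 12, 12 (Pcl3) and 3 with 50 kb. They gave 0 for H3K27me3 at p-values of at most 1e-10 and at most 1e-12, where the primed and lineage genes gave 2 and 1. The Klf family gave 5 for Pcl3 with 50 kb and 3 for Suz12 at both p-values. The ribosomal genes, in the order Suz12, Suz12-depleted, Pcl3 and H3K27me3-depleted, gave 1, 0, 0 and 0 without flanks, 2, 1, 0 and 0 with 1 kb, 4, 2, 1 and 1 with 2 kb, 15, 9, 4 and 5 with 10 kb, 26, 19, 9 and 7 with 20 kb, 39, 31, 23 and 11 with 50 kb, and 4, 2, 1 and 0 around starts only. Their Pcl3 count was 1 where the center or at least 50% of the site had to lie in the window, their H3K27me3 count 1 at 1e-10 and 0 at 1e-12, and their Suz12 count 5 at 1e-12. A wider flank covers more neighbouring genes, and a stricter p-value leaves fewer sites.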

Other observations

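Pcl3 sites without a Suz12 site in the same gene window were found at 224 protein-coding genes (1.00%). Of the genes listed here they were Sox2, Rif1, Trim28 and Klf7. The nearest Suz12 sites were 7.03 kb from Sox2, 12.0 kb from Trim28, 138 kb from Rif1 and 613 kb from Klf7. Their Pcl3 strengths, from 7.4 to 13.3, were below the median of 16.3 over the 5242 Pcl3 sites.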
